A study of Homo sapiens with 6 samples.

Results

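The regions described here are the METTL3 peaks of PC3 cells that lay at gene ends. A peak was included when its summit was within 3 kb of the start or the 3′ end of a protein-coding gene on chromosomes 1 to 22 and X of hg38, with chromosome 8 left out. This gave 418 of the 6758 PC3 METTL3 peaks on these chromosomes, 6.19% (95% exact binomial interval 5.62 to 6.79). The groups of the study were PC3 and LNCaP prostate cancer cells, each profiled with an antibody against METTL3, with an antibody against PRMT5 and with a control, 1 library per group and 6 in all. PC3 is an androgen-independent established line and LNCaP an androgen-responsive one. No drug, knockdown or other treatment is named in the labels, and all libraries came from 100000 cells and 16 PCR cycles. The control libraries are titled IgG, their antibody field names a secondary antibody, and they entered only through the peak calls made against them. Peaks of 1 library are not replicates, so no difference below carries a p-value. Intervals cover counting error only, and the read depth behind the lists is unknown.

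METTL3 is the catalytic subunit of the complex that methylates adenosine in RNA to N6-methyladenosine, with METTL14 as its partner and WTAP as a regulatory subunit. The complex works largely while RNA is being made, so the enzyme can be found near chromatin, and in other cell types it has been reported at gene promoters. The methyl mark itself is abundant near stop codons and in the last exons of messenger RNAs, towards the 3′ ends of genes. PRMT5, profiled in the same cells, methylates arginines of histones and splicing proteins.

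The sequences of 4 gene starts near a member summit are given here. They were chosen as extremes, so they do not measure how varied such members were. A summit lay inside a RefSeq promoter window (250 bases before to 50 after an annotated start, build GRCh38.p14) at 7 genes, CYP20A1, GPX5, SPX, FBXO4, NTRK2, LCE1C and ZBTB14. The sequences, 5′ to 3′ on the gene's strand, are the 250 bases before the start of the gene with the highest fold (CYP20A1, an orphan cytochrome P450; chr2:203238768-203239017, plus strand), the most CG-rich (NTRK2, a neurotrophin receptor; chr9:84669783-84670032, plus strand), the most CG-poor (LCE1C, a protein of the skin barrier; chr1:152806652-152806901, minus strand) and the one with the most motif matches (ZBTB14, a zinc finger transcription factor; chr18:5295727-5295976, minus strand). Capitals mark matches, on either strand, to CCAAT, the GC box GGGCGG, the TATA box TATAAA, the AP-1 site TGACTCA or the ETS core CGGAAG.
CYP20A1: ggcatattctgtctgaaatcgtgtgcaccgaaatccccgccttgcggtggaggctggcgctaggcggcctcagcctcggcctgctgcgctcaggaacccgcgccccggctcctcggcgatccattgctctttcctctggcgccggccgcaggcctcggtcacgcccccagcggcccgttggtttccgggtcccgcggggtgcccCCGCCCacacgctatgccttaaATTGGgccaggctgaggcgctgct
NTRK2: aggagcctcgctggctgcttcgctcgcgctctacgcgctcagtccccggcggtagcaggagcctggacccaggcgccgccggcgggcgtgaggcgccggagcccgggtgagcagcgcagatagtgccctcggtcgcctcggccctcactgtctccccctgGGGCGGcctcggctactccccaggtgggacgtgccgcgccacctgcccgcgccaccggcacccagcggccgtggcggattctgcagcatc
LCE1C: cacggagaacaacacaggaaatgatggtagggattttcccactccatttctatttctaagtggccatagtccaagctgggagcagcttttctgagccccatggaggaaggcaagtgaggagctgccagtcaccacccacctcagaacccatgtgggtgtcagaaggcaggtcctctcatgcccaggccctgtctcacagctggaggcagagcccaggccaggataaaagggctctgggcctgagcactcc
ZBTB14: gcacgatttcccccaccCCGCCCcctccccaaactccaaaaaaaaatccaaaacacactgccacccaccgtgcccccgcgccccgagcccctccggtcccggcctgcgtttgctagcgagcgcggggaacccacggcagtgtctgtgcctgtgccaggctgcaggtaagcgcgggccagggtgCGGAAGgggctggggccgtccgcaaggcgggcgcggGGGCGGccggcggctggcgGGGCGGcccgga

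The summit lay 166 bp before the start of CYP20A1, 171 bp before NTRK2, 201 bp before LCE1C and 238 bp before ZBTB14. The fold, the authors' own value of a peak's enrichment over the control, was 5.92 at CYP20A1, 5.31 at NTRK2, 4.77 at LCE1C and 3.68 at ZBTB14. CYP20A1 had 26 CG dinucleotides in its stretch, NTRK2 31, LCE1C 1 and ZBTB14 27. A window may use another annotated start of the gene than the outermost one that set the distances in the rest of the text. No motif searched was present in the LCE1C stretch or in that of GPX5, an epididymal glutathione peroxidase. GGGCGG was found at 5 of the 7 genes, against 53.7% of the 22132 windows of protein-coding genes read the same way. CCAAT was found at 1 of 7, against 32.7% of windows, and CGGAAG at 1 of 7, against 20.1%. TATAAA and TGACTCA were found at none of the 7, and in 1991 and 763 of the 22132 windows. At least 10 CG dinucleotides were found in 5 of the 7 stretches, against 65.5% of those windows. The median was 22 CG in the 7 and 16 in all windows. A match is a description of the letters, and 7 windows are too few to set a share.

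PC3 METTL3 peaks were no denser at gene ends than in the rest of the genome. The 418 summits fell in 191 Mb lying within 3 kb of a gene start or 3′ end, a density of 2.19 summits per Mb (95% Poisson interval 1.99 to 2.41). The other 6340 summits gave 2.35 per Mb (2.30 to 2.41). In steps outward from the nearest gene start or 3′ end, the density was 1.71 per Mb within 0.5 kb, 2.55 from 0.5 to 1 kb, 2.18 from 1 to 2 kb and 2.30 from 2 to 3 kb. Beyond the members it was 2.11 from 3 to 5 kb, 2.27 from 5 to 10 kb and 2.30 beyond 50 kb. The innermost step, with 62 members, was the lowest, and its interval of 1.31 to 2.20 lay below the density away from gene ends. PC3 PRMT5 summits, called against the same control, had 4.95 per Mb within 0.5 kb (4.25 to 5.73) and 0.197 beyond 50 kb. The span counted takes in assembly gaps, which were counted as lying away from gene ends.

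**Figure D1:**
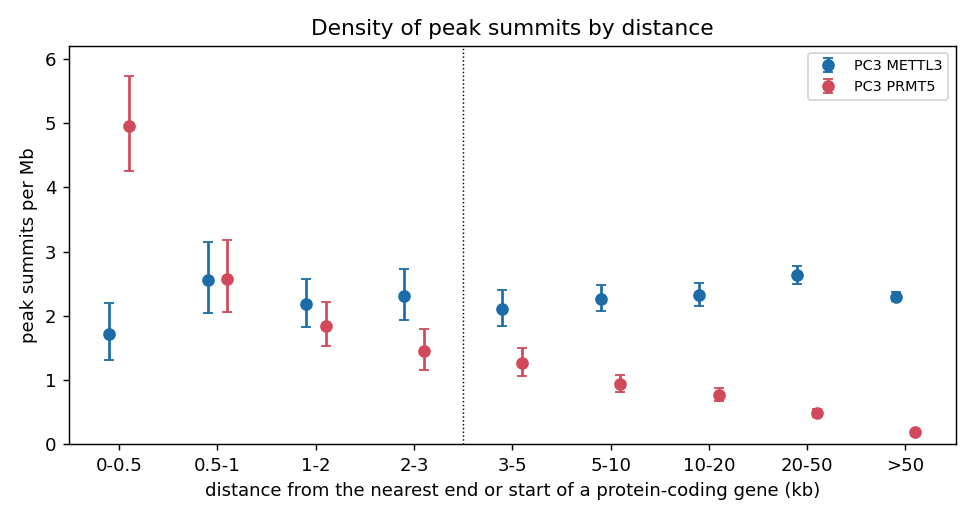
Peak summits per Mb (y axis) against distance from the nearest start or 3′ end of a protein-coding gene in kb (x axis), with 95% Poisson intervals; the dotted line is the 3-kb limit of the set. PC3 METTL3 stays between 1.71 and 2.63 per Mb at every distance, whereas PC3 PRMT5 runs from 4.95 within 0.5 kb to 0.197 beyond 50 kb.

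The list is uneven along the genome, so the same count was also read against its own surroundings. With the density found away from gene ends on the same chromosome, 453 summits would lie at gene ends, and with that of the same 10-Mb stretch 478 would; 418 did, ratios of 0.922 and 0.875. Within 500 bp there were 62 members, against 85.7 at the density of the same chromosome and 90.2 at that of the same stretch. PC3 PRMT5 had 466 peaks at gene ends, against 107 and 152. The METTL3 density at gene ends was above that elsewhere on 9 of 22 chromosomes, and the PRMT5 density on 21 of 22.

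Gene starts and 3′ ends held METTL3 summits in like numbers. RefSeq gave a strand for 346 of the 418 nearest genes. Of these 346 peaks, 176 were nearest to a gene start, 50.9% (45.5 to 56.3), and 170 to a 3′ end. Within 500 bp, 21 were nearest to a start and 29 to a 3′ end. The median fold was 5.03 at starts and 5.01 at 3′ ends. The summit lay inside its nearest gene for 203 of the 418, 48.6% (43.7 to 53.5), and outside it for the other 215. Of the PC3 PRMT5 peaks at gene ends, 65.1% (59.9 to 70.1) were nearest to a start, and within 500 bp 122 were nearest to a start and 16 to a 3′ end. The interval of the METTL3 share thus lay wholly below that of the PRMT5 share.

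**Figure D2:**
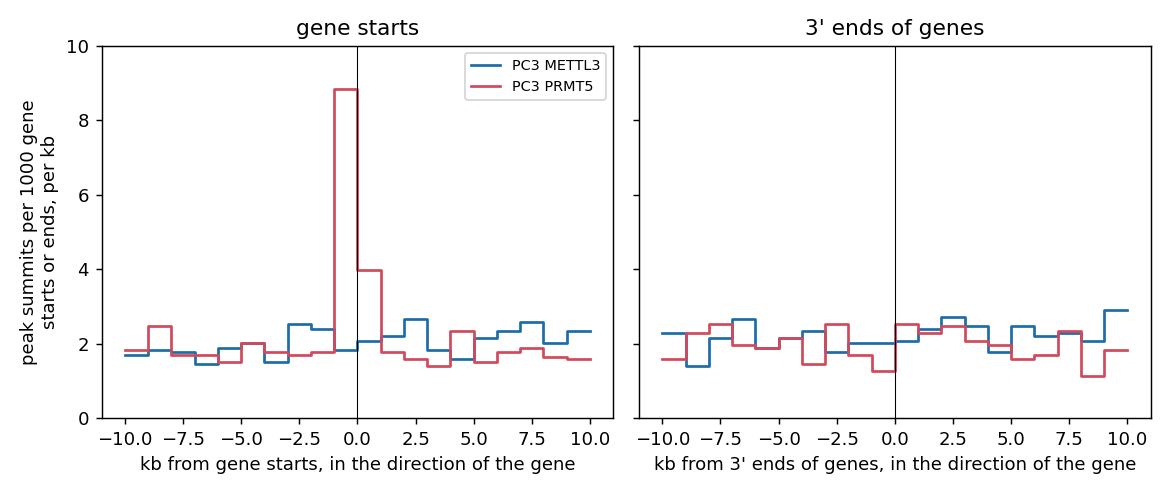
Peak summits per 1000 gene starts (left) or 3′ ends (right) in 1-kb steps (y axis), from 10 kb before to 10 kb after in the direction of the gene (x axis), counting each summit for every gene in range. PC3 PRMT5 reaches 8.85 in the kb before gene starts, whereas PC3 METTL3 stays between 1.45 and 2.66 around starts and between 1.39 and 2.91 around 3′ ends.

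The members were low and narrow peaks, like the rest of the list. Their fold had a median of 5.01, quartiles of 4.49 and 5.92 and a range of 3.20 to 8.65. Peaks inside gene bodies, away from the ends, had a median of 5.09 and a maximum of 11.7, and peaks between genes had 5.10 and 13.8. No member reached a fold of 9, which 30 of the 6340 other peaks did. A fold of at least 8 was reached by 1.67% of members and 1.77% of the other peaks. A fold of at least 7 was reached by 4.07% and 6.32%. The width of 326 members, 78.0% (73.7 to 81.9), was 292 bp, the smallest in the list. That width was found in 74.7% of peaks inside gene bodies and 73.3% between genes. The −log10 q had a median of 3.57 in all 3 classes, and 76 members had the same value of 2.84. A −log10 q of 3 or more was met by 57.9% of members (53 to 62.7), 59.1% of peaks inside gene bodies and 59.2% of those between genes.

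Fold differed little with position inside the 3-kb window. Its median was 4.99 within 500 bp of a gene start or 3′ end, 5.31 from 500 to 1000 bp, 5.01 from 1000 to 2000 bp and 5.01 from 2000 to 3000 bp. The Spearman correlation of fold and distance over the 418 members, all of 1 library, was -0.0064. The members nearest to the limit were ARF1 at 2982 bp with a fold of 4.49 and CARF at 2981 bp with 5.61. Just outside it were CIT at 3005 bp with a fold of 7.43 and SNAP47 at 3030 bp with 5.54.

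**Figure D3:**
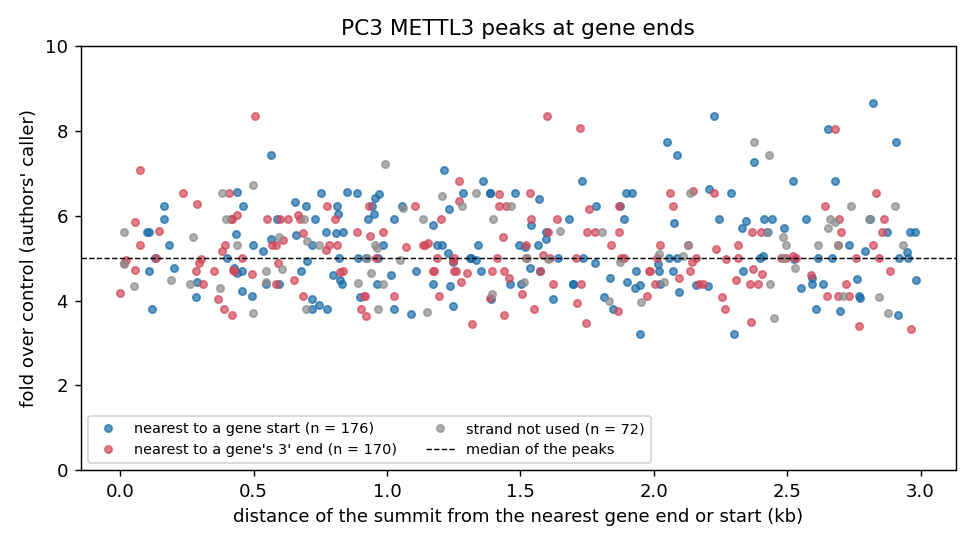
Fold over the control (y axis, authors' caller) of each of the 418 members against the distance of its summit from the nearest gene start or 3′ end in kb (x axis), coloured by the kind of end, with the median of 5.01 dashed. Most points lie near the median at every distance, and the highest fold is 7.07 within 0.5 kb, 8.35 from 0.5 to 1 kb, 8.34 from 1 to 2 kb and 8.65 from 2 to 3 kb.

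The 10 members of highest fold, 7.74 to 8.65, stood beside genes of unrelated kinds. Of these, 9 were more than 1 kb from the nearest gene start or 3′ end. Most members were too, since 35.4% of all 418 lay within 1 kb. The highest, of fold 8.65, lay at chromosome 1, positions 153256652 to 153257035, 2820 bp before the start of LORICRIN, a major protein of the cornified envelope of skin. Both ends of ERO1A, an oxidase of the endoplasmic reticulum that supports disulfide bond formation, had a peak. One of fold 8.35 lay at chromosome 14, positions 52640258 to 52640643, inside the gene and 506 bp from its 3′ end. The other, of fold 8.34 at positions 52693104 to 52693618, lay 2227 bp inside its start. ARHGAP5, a GTPase-activating protein, had a peak of fold 8.34 1601 bp beyond its 3′ end, and RBMXL1, a retrotransposed copy of an RNA-binding protein gene, one of fold 8.06 1722 bp beyond its 3′ end. The peaks at ANO3, of the anoctamin family, and at MED13L, a subunit of the Mediator kinase module, had a fold of 8.04. CLRN1, a gene of the inner ear and retina, SCN9A, a voltage-gated sodium channel, and ACVRL1, an endothelial receptor of the TGF-beta family, followed at 7.74. Of these 10 peaks, 1, at LORICRIN, overlapped a peak of another list.

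The 8 members nearest to a gene start or 3′ end had their summits 1 to 57 bp from it and were not among the highest. SHFL, an interferon-induced inhibitor of ribosomal frameshifting, had its 3′ end 1 bp from a summit of fold 4.18. TNFSF18, the ligand of the costimulatory receptor GITR, had a summit 23 bp from its 3′ end with a fold of 4.96, and HAPLN3, a hyaluronan link protein, 16 bp from its 3′ end with 4.88. MRAP, an accessory protein of melanocortin receptors, had a fold of 5.61 at 13 bp. SPRR1B, a cornified envelope protein, had 5.85 at 54 bp from its 3′ end, and KLHL35 had 4.71 at 57 bp. AKR1B15 with a fold of 4.86 and PSG9 with 4.34 belong to families of near-identical copies, so reads counted there may come from relatives.

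At the level of genes, 478 of 19259 protein-coding genes, 2.48%, had a METTL3 summit within 3 kb of an end in PC3. A single gene was served by 356 of the 418 peaks, 2 genes by 58 and 3 genes by 4. Those 4 peaks stood beside RAD51C with TEX14 and IGBP1C (fold 5.92), beside RBM12 with CPNE1 and NFS1 (4.70), beside FOXM1 with ITFG2 and TEX52 (4.10) and beside NDUFB6 with SMIM27 and TOPORS (3.79). There were 6 genes with 2 members each. Besides ERO1A these were GAGE13 (folds 5.59 and 4.77), a cancer-testis gene of a near-identical tandem family, the acetyltransferase gene KAT2B (4.10 and 5.61), KLHL35 (4.71 and 4.77), the neurotrophin receptor gene NGFR (4.10 and 5.31) and the potassium channel gene KCNF1 (4.59 and 4.06). Among members, 82 also lay within 3 kb of an end of a gene of another type, 63 of these nearest to a long noncoding RNA gene.

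Genes with a METTL3 peak at the start were not richer in CG dinucleotides than protein-coding genes at large, whereas those with a PRMT5 peak were. In RefSeq windows of 300 bases, 1 per gene, 67.3% of the 217 genes with a METTL3 peak at the start had at least 10 CG dinucleotides (60.6 to 73.5). For PC3 PRMT5 the share was 89.9% of 258 genes (85.6 to 93.3), and for all 15812 protein-coding genes with a window it was 72.8%. GGGCGG was present in 57.1% of windows for METTL3, 71.7% for PRMT5 and 58.3% for all genes. CCAAT was present in 27.6% for METTL3, 43.4% for PRMT5 and 36.4% for all genes. The 478 genes, with or without a strand, had a median length of 27.0 kb, against 14.6 kb for the 473 genes with a PC3 PRMT5 peak at an end and 24.0 kb for all protein-coding genes. Among METTL3 genes with a strand, the median was 23.1 kb for the 217 with a peak at the start. It was 23.3 kb for the 204 with one at the 3′ end. The PRMT5 genes are 2.46% of those tested.

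Chromosomes differed in how many of their genes were reached. The share of protein-coding genes with a METTL3 peak at an end was 3.87% on chromosome 5, 3.85% on chromosome 3 and 3.64% on chromosome 14, and at the low end 0.771% on chromosome 9 and 0.585% on chromosome 16. Chromosomes 3 and 14 also had the highest density of all METTL3 peaks, with 4.22 and 4.23 peaks per Mb. Chromosome 10 was nearly as dense, at 4.05, but had 1.91% of its genes reached. Over the 22 chromosomes the share of genes and the density of the list had a Spearman correlation of 0.71, a description of 1 library in which members are part of the list. On gene-dense chromosome 19, 20.7% of its 111 METTL3 peaks were members (13.6 to 29.5), yet 1.93% of its 1451 genes were reached. There 13.4 of 58.6 Mb lay within 3 kb of a gene start or 3′ end. The density in that part was 1.72 summits per Mb, against 1.95 elsewhere on the chromosome.

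**Figure D4:**
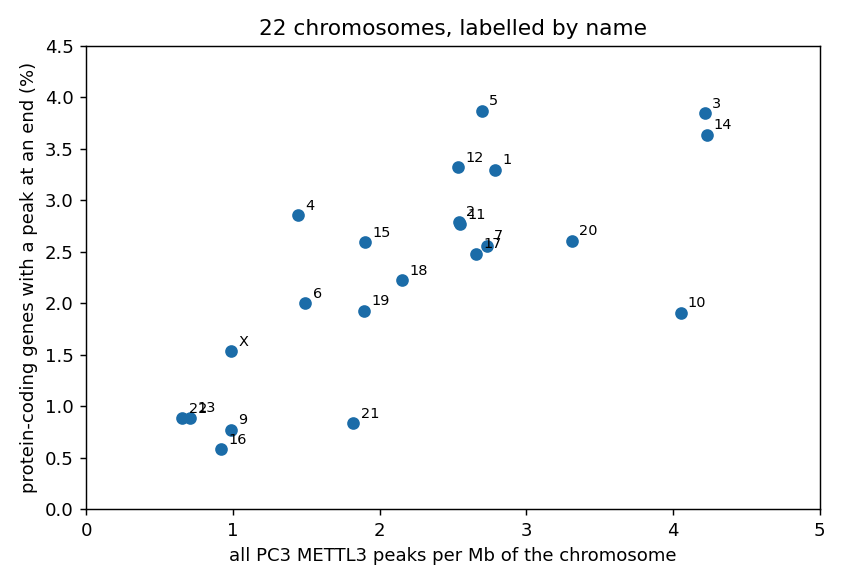
Percent of protein-coding genes with a PC3 METTL3 peak at an end (y axis) against all PC3 METTL3 peaks per Mb (x axis), 1 point per chromosome. Chromosomes 3 and 14 sit at the upper right, chromosomes 9, 13, 16 and 22 at the lower left, and chromosome 10 lies at 4.05 peaks per Mb with 1.91% of genes.

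At a finer scale, members were counted beside METTL3 peaks and gene starts and 3′ ends in stretches of 10 Mb. Of 301 stretches of 10 Mb, 118 held no member. Over the 301 stretches the number of members had a Spearman correlation of 0.55 with that of METTL3 peaks, of which members are part, and of 0.48 with that of gene starts and 3′ ends, as a description of 1 library. Members are by rule METTL3 peaks near a gene start or 3′ end, so positive values were built into both correlations. The most, 14, lay on chromosome 1 between 150 and 160 Mb, a stretch with 42 METTL3 peaks and 563 gene starts and 3′ ends. LORICRIN, SPRR1B and LCE1C, skin barrier genes of the epidermal differentiation complex, all lie there and were picked out after their values were seen. Chromosome 19 between 50 and 60 Mb held 11 members among 36 peaks, and chromosome 17 between 50 and 60 Mb, among the fullest by both counts, 7 among 66. The fullest stretch of the list, chromosome 10 between 60 and 70 Mb, had 130 METTL3 peaks and 84 gene starts and 3′ ends, and 3 of its peaks were members. The 10 stretches with the most METTL3 peaks held 12.7% of the list, 6.46% of the members and 2.90% of gene starts and 3′ ends.

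Few members coincided with peaks of the other libraries, at a level near that of the other PC3 METTL3 peaks. Of the 418, 8 overlapped a PC3 PRMT5 peak by at least 1 bp, 1.91% (0.830 to 3.74), 1 a LNCaP METTL3 peak and 3 a LNCaP PRMT5 peak. The LNCaP METTL3 list held 155 peaks on these chromosomes. The PC3 PRMT5 share was 2.12% for METTL3 peaks inside gene bodies and 1.97% for those between genes. The LNCaP METTL3 share was 0.239% for members, 0.219% inside gene bodies and 0.194% between genes. The LNCaP PRMT5 share was 0.718%, 0.511% and 0.555% in the same order. Seen from the PC3 PRMT5 list, 1.93% of its 466 gene-end peaks overlapped a METTL3 peak (0.887 to 3.63), against 9.72% of those inside gene bodies (7.48 to 12.4) and 14.2% of those between genes (11.3 to 17.5). These PC3 lists share a control library. By contrast, 30.3% of the PC3 PRMT5 gene-end peaks (26.1 to 34.7) overlapped a LNCaP PRMT5 peak.

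The 8 overlapping members were wider than most, with a median width of 489 bp, and 7 of them exceeded the smallest width. At LORICRIN the fold was 8.65 for METTL3 and 7.36 for PC3 PRMT5. TCP10L had 6.04 for METTL3 and 7.26 for PC3 PRMT5, ABHD5, an activator of triglyceride lipase, 5.31 and 5.14, and CABCOCO1 5.20 and 5.80. At IER2, an immediate early gene, a METTL3 peak of 4.88 overlapped a PC3 PRMT5 peak of 5.92, with the METTL3 summit inside the gene, 294 bp from its 3′ end. FAM240C had folds of 4.60 for METTL3, 6.52 for PC3 PRMT5 and 3.01 for LNCaP PRMT5, and the locus LOC124907874 had 5.70, 8.79 and 6.22. SERINC2, of a family of serine incorporators, had a peak in every list at overlapping positions. Its folds were 3.39 for PC3 METTL3, 3.48 for PC3 PRMT5, 2.97 for LNCaP METTL3 and 3.77 for LNCaP PRMT5. The PC3 METTL3 peak there had the largest −log10 q of all members, 44.5, with a width of 572 bp.

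Counted by gene and without asking for overlap, 18 genes with a METTL3 peak at an end in PC3 also had one of PRMT5, 3.77% of the 478 METTL3 genes and 3.81% of the 473 PRMT5 genes. Of all genes tested, 2.46% had a PC3 PRMT5 peak at an end and 2.48% a METTL3 peak. Among the 18 was ATP6V1A, the catalytic subunit of the vacuolar proton pump, with folds of 6.22 for METTL3 and 6.41 for PRMT5. Its METTL3 peak also served NAA50, another of the 18. The summit lay inside NAA50, 814 bp from its start, and outside ATP6V1A, 1600 bp from its end or start. The 478 genes shared 7 with the 376 genes of LNCaP PRMT5 (1.95% of genes tested) and 1, SERINC2, with the 14 genes of LNCaP METTL3 (0.0727%).

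The listed genes of the m6A pathway had no METTL3 peak at an end, but they are too few to be set apart from all genes. Of its 21 writers, erasers and readers on these chromosomes 0 had one. The exact 95% interval reached 16.1% and takes in the 2.48% of all genes. The nearest METTL3 summit was 664 kb from the METTL3 gene, 529.9 kb from METTL14 and 328 kb from WTAP. It was 746 kb from PRMT5 and 368 kb from WDR77, the partner of PRMT5. Of 14 genes of arginine methyltransferases and the methylosome, 2 had a peak, 14.3% (1.78 to 42.8). That interval also takes in 2.48%. PRMT3, which methylates a ribosomal protein, had a fold of 5.31 at 2823 bp from its 3′ end, and PRMT7 had 4.40 at 963 bp from its start. None of the 4 lists had a peak at an end of METTL3, METTL14, WTAP, PRMT5, WDR77 or KLK3.

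Among 30 SR and hnRNP splicing regulators, 3 had a METTL3 peak, 10% (2.11 to 26.5), beside the 2.48% of all genes. HNRNPU, a scaffold protein of nuclear RNA, had a fold of 6.83 at 1360 bp before its start. SRSF11 had 6.52 at 2406 bp before its start, and HNRNPL had 4.70 at 1177 bp from its 3′ end. The SRSF11 peak was nearer to LRRC40, with its summit inside that gene, 2289 bp from the start of LRRC40. HNRNPL also had a LNCaP PRMT5 peak of fold 9.10 within 3 kb of an end, which did not overlap its METTL3 peak. Of 27 AP-1 and immediate early genes, IER2 and EGR2 had one, 7.41% (0.910 to 24.3). The EGR2 peak had a fold of 5.35 at 2364 bp beyond the 3′ end of EGR2. It was nearer to ADO, 1153 bp beyond the 3′ end of that gene. The intervals of both lists take in the share of all genes.

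Of 28 androgen response and luminal genes, 2 had a METTL3 peak, 7.14% (0.877 to 23.5), an interval that takes in the 2.48% of all genes. KLK2, a secreted prostate protease, had a fold of 6.83 at 2678 bp before its start, and PMEPA1 had 5.01 at 2494 bp beyond its 3′ end. That KLK2 peak was also the nearest to KLK3, the gene of prostate-specific antigen, at 9997 bp. Of 29 basal, stem and mesenchymal genes 2 had one, 6.90% (0.846 to 22.8), EGFR with a fold of 5.92 at 2245 bp before its start and ZEB2 with 4.10 at 1195 bp beyond its 3′ end. No gene among 31 of the cell cycle, 26 p53 targets and apoptosis genes, 32 prostate cancer drivers, 39 chromatin regulators or 30 interferon response genes had one. The exact intervals reached 11.2% for the cell cycle, 13.2% for p53 targets, 10.9% for drivers, 9.03% for chromatin regulators and 11.6% for interferon response genes, all above 2.48%. Of 28 lysosomal genes, 1 had a METTL3 peak, 3.57%, and 11 a PC3 PRMT5 peak, 39.3%, beside 2.48% and 2.46% of all genes.

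Lists of other cell types did not stand apart. Of 20 immune genes 0 had a METTL3 peak, of 20 hepatocyte genes 1 did, CYP3A4 with a fold of 5.61, and of 17 neuronal genes 1 did. Peaks are not expression, so they give no cell type. Over the 15 named lists, 14 of 392 places held a gene with a peak, 3.57%, beside the 2.48% of all genes, and 7 lists had none.

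Of 13 gene families defined by their symbols, 2 had intervals that left out the 2.48% of all genes, out of 28 intervals for lists and families. Clustered protocadherins, adhesion proteins of neurons, had 5 of 53, 9.43% (3.13 to 20.7), but these 5 genes rest on 3 peaks, since neighbouring genes share them. PCDHA10 had a fold of 7.43, and PCDHGB3 with PCDHGA6 and PCDHGB7 with PCDHGA11 had 5.92. Keratins and keratin-associated proteins had 0 of 149, with an interval of up to 2.45%, only just below 2.48%. That interval counts genes as independent, although neighbouring genes can share a peak, so it is too narrow where they do. Solute carriers had 16 of 380, 4.21% (2.43 to 6.75), among them SLCO4C1, an organic anion transporter, with a fold of 6.52; the symbol pattern also takes in SLC7A6OS, which is not a carrier. Olfactory receptors had 14 of 391, 3.58% (1.97 to 5.93), led by OR14A2 with a fold of 6.62, against 2 of 391 for PC3 PRMT5. ZNF-numbered zinc finger genes had 13 of 492, led by ZNF558 with 6.22, and ribosomal protein genes 2 of 88, RPS3 with 4.71 and RPL4 with 4.70. The RPS3 peak is the same peak as that of fold 4.71 at the 3′ end of KLHL35, and the RPL4 peak also served ZWILCH. Replication-dependent histone genes had 0 of 72. Olfactory receptors, zinc finger genes, histones and protocadherins lie in clusters of similar copies, where reads may be shared between genes.

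**Figure D5:**
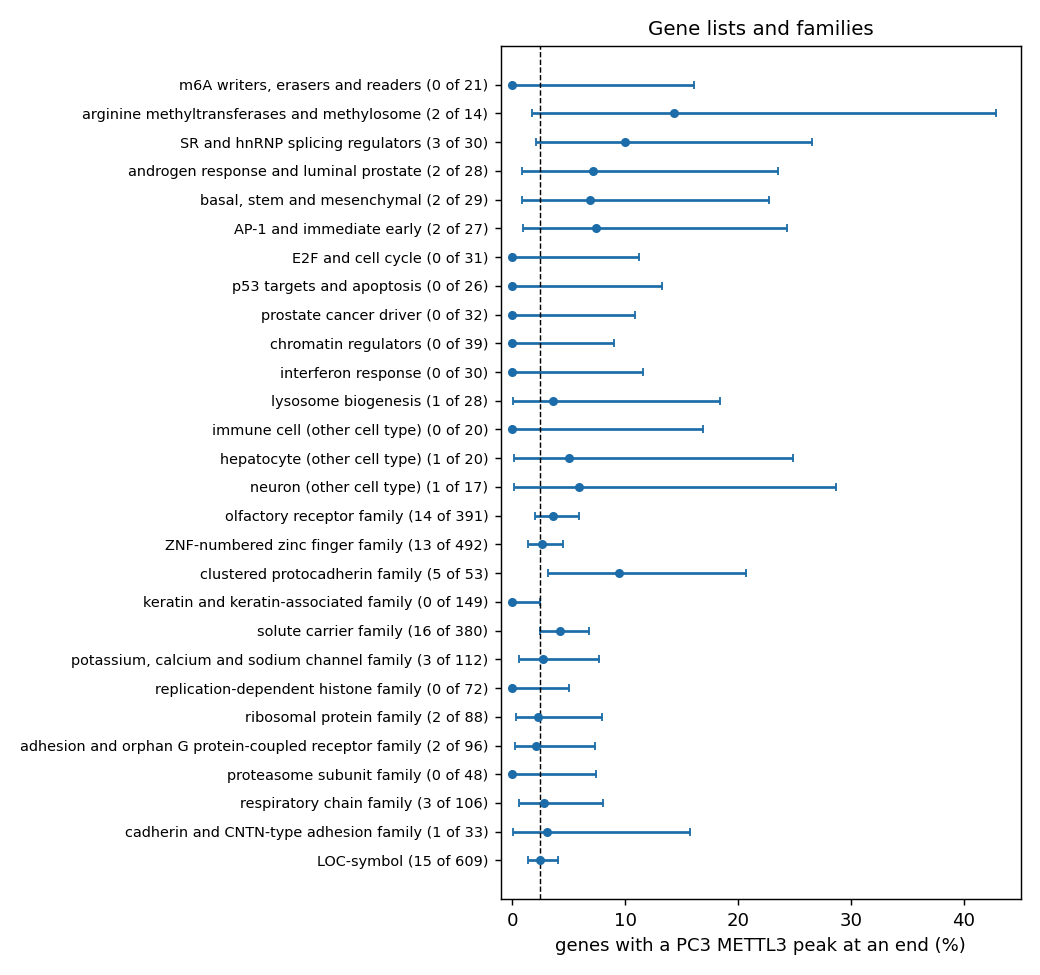
Percent of the genes of each list or family with a PC3 METTL3 peak at an end (x axis), with 95% exact binomial intervals and the counts beside each name (y axis); the dashed line is the 2.48% of all protein-coding genes. Of the 28 intervals, those of clustered protocadherins and of keratins leave out the line, that of keratins (up to 2.45%) only just.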

How the data were processed

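Per the labels' protocols, antibody-bound chromatin was cut in place by Tn5 fused to protein G. MACS2 2.1.0, Bowtie 1.1.1, Trimmomatic 0.33, bcl2fastq 2.17 and ChIPseeker are named in the submitters' processing notes, with hg38 as the build. Their settings, and whether duplicates were removed, are not given in the sources used. The authors deposited 1 peak list per antibody and line, called against that line's control, with a score, a fold (ratio over the control), −log10 p and −log10 q values and a summit per peak. These are the authors' values and were used only to describe and filter peaks.

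Gene positions, strands and promoter windows came from RefSeq tables of GRCh38.p14, whose primary coordinates are those of hg38. Of the 19259 protein-coding genes used, 15812 had a strand. No genome sequence, exons or UTRs were used. Summits were compared with gene starts and 3′ ends, overlaps needed 1 shared bp, and intervals were exact binomial or Poisson at 95%, in Python 3.11.15 with scipy 1.17.1. The procedures were tested on simulated peaks. Entries on chromosome 8 (692) and on other sequences (50) were left out. With 1 library per group no test was made.

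Named were the 10 members of highest fold, the 8 nearest to a gene start or 3′ end, the 8 overlapping members, peaks serving 3 genes, genes with 2 members, up to 4 genes per list, and METTL3, METTL14, WTAP, PRMT5, WDR77 and KLK3. The members, lists and names were chosen with earlier results of these data known. A few genes that these rules would name are not reported here.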

Additional observations from a re-analysis of the deposited data

How the results depend on the processing

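No paired analysis was possible because each group has 1 library, and for the same reason no library could be left out. The number of members and of genes follows the window. With 1 kb there were 148 members, 2.19% of the list, at 153 genes, and with 5 kb 637, 9.43%, at 730 genes. With the ends of all gene types there were 1092 members, 16.2% of the list, at 1315 genes of any type. A −log10 q of at least 3 kept 242 members with a median fold of 5.63 at 277 genes, and a fold of at least 5 kept 242 with a median of 5.63 at 278 genes; these filters raise the median by their construction, and the share of the list was then 6.06% and 6.04%. The other alternatives moved no value by more than its interval or a count by over 1.5 times. The share nearest to a gene start was 50.8% with 1 kb and 52.0% with the q filter, and the share overlapping PC3 PRMT5 was 1.20% to 3.31%. Depth is unknown, so a place without a peak may hold signal below the caller's threshold.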
